A study of Mus musculus with 7 samples.

Results

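The 19 Wnt ligand genes, the 10 Frizzled receptor genes, the coreceptor genes Lrp5 and Lrp6 and the alternative Wnt receptor genes Ror1, Ror2 and Ryk were followed in intestinal epithelial cells of mice that lost Mob1a and Mob1b. These 34 genes were picked by symbol out of 20887 genes with a symbol on the array, and were covered by 42 probes. Of the 34 genes, 21 were bright enough to be tested, among 24763 features tested in all. Epithelial cells had been freed from the proximal intestine of male mice with 2 mM EDTA, and their RNA was read on 1-colour Agilent arrays, 1 array per sample. Each of the 5 knockout mice carried floxed Mob1a and Mob1b together with Villin-creERT2, a tamoxifen-inducible Cre driven by the Villin promoter, which is active along the intestinal epithelium but not in other cell types of the gut wall. The control mice carried the same floxed alleles without the Cre, so that no deletion was induced in them. All mice received tamoxifen at 80 mg/kg on each of 2 days at 8 weeks of age and had been bred to C57BL/6J for more than 6 generations. Knockout cells were taken at day 4 (2 arrays), day 7 (2 arrays) and day 10 (1 array), and the control group had 2 arrays. The labels place the controls 7 days after tamoxifen, while the design text lists a day 0 group of different mice, so the day of the control is not settled.

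Wnt proteins are secreted, lipid-modified signals. They bind Frizzled receptors on the cell surface, with Lrp5 or Lrp6 as coreceptor when the signal runs through beta-catenin, or with Ror and Ryk proteins in routes that do not need beta-catenin. In the intestinal crypt Wnt signalling maintains stem cells. Wnt3 is a known product of Paneth cells, Wnt2b of the surrounding stroma, and Fzd7 is a receptor of Lgr5+ stem cells. MOB1A and MOB1B are scaffold proteins of the Hippo pathway that activate the LATS kinases and thereby restrain YAP and TAZ.

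Values are log2 signals relative to the 75th percentile of each array, so a level of 0 equals that percentile. Levels of different genes come from different probes and were not set against each other. A probe was taken as detected on an array when the scanner software marked its signal as well above background. The deletion was read from Mob1b, whose brighter probe stood at -0.73 and -0.92 in the controls, -2.25 and -2.21 at day 4, -2.50 and -2.27 at day 7 and -2.44 at day 10. Mob1b differed from control by -1.41 ± 0.22 (log2 difference ± SE) on day 4 (adjusted p = 0.18 by limma), -1.56 ± 0.22 on day 7 (0.013) and -1.62 ± 0.26 on day 10 (0.0068). A fainter Mob1b probe read -1.33 and -1.47 in the controls, -2.47 and -2.29 at day 4, -3.20 and -2.87 at day 7 and -2.82 at day 10. The single Mob1a probe was not called lower. Its differences from control were -0.25 ± 0.24 on day 4 (adjusted p = 0.97), 0.28 ± 0.24 on day 7 (0.55) and 1.63 ± 0.30 on day 10 (0.010). The place of the Mob1a probe relative to the deleted exons was not analysed here. Replicate arrays correlated at 0.977 to 0.988 over the tested features. The day 10 array stood apart, with correlations of 0.865 to 0.919 to the other 6 arrays, and its 75th percentile signal was 469.6 against 277.9 to 338.6 elsewhere. The slide held controls and day 4 in its first row and the later days in its second, so a row effect cannot be told apart from a difference between these pairs of groups.

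All 12 epithelial markers were detected on every array. Their summed linear level was 2630 to 2990 times the 75th percentile, but single markers moved. Against control, 0 were called higher and 2 lower at day 7, where 3.05% and 4.31% of all features were. At day 10, 3 were called higher and 3 lower, where 10.7% and 17.5% of all features were. Tff3 went from 8.98 and 8.85 in the controls to 4.13 at day 10, and Cdx1 from 6.01 and 6.02 to 3.18. Krt18 went from 7.28 and 7.18 to 8.97. Markers of other cells also moved with time. The 8 Paneth cell markers on the array were all detected on every array, but their summed level was 1730 to 2070 in the controls, 1590 to 1640 at day 4, 732 to 1240 at day 7 and 268 at day 10. Defa23 was the brightest of them on every array. Against control, 2 of the 8 were called lower at day 7, where 4.31% of all features were. At day 10, 6 were called lower and 1 higher, where 17.5% and 10.7% of all features were. Nupr1 went the other way, from 2.19 and 1.92 in the controls to 4.90 at day 10. The 9 T cell markers, all detected on every array, summed to 226 to 249 in the controls, 230 to 239 at day 4, 330 to 387 at day 7 and 16.5 at day 10. Gzma was the brightest of them, at 7.59 and 7.38 in the controls, 8.22 and 7.93 at day 7 and 3.01 at day 10. At day 7, 1 of the 9 was called higher than control, where 3.05% of all features were. At day 10, 7 were called lower, but Cd8b1 stood at -2.53 against -2.87 and -3.30 in the controls. Of 8 myeloid markers 5 to 6 were detected up to day 7, with sums of 29.2 to 61.1. All 8 were detected at day 10 with a sum of 326, where S100a8 and S100a9 stood at 5.92 and 7.43. Of the 7 tested, 4 were called higher than control there and 0 lower, where 10.7% and 17.5% of all features were. Itgam stood at 5.20 and 5.29 in the controls and 6.01 at day 10. Lyz2 did not rise, with -0.82 and 0.63 in the controls and -0.93 at day 10. The mesothelial list of 5 genes summed to 0.225 to 0.305 in control and day 4 arrays, 5.91 to 6.92 at day 7 and 350 at day 10. That sum followed Msln. Upk1b, detected on every array, stood at -2.50 and -2.75 in the controls and 0.66 at day 10, and both genes were called higher there. Wt1 and Upk3b were not detected on any array. The 17 fibroblast markers summed to 1.72 to 2.86 up to day 7 and 5.03 at day 10, where Fn1 stood at 1.84. Of the 7 tested, Fn1 was called higher than control at day 10 and Dcn and Sparc lower, with a median difference of -1.08, and Col1a1, Lum, Dpt and Pdgfra were detected on no array. The sums of the other lists were 4.44 to 8.51 for smooth muscle, 7.89 to 10.9 for endothelium, 65.4 to 104 for B cells and 0.736 to 2.17 for enteric neurons and glia. Kdr was the brightest endothelial marker on every array. Of the 6 endothelial markers tested, 1 was called higher than control at day 7, and 1 higher and 1 lower at day 10. Tie1 stood at -6.76 and -6.54 in the controls, not detected, and 0.49 at day 10. Lyve1 went from -2.29 and -1.89 in the controls to -5.00 at day 10, where it was not detected. The part of these cell types in the differences given here was not tested. In such mixed RNA, fewer cells of a type and less RNA per cell cannot be told apart.

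Differences from control were called from day 7 on, in both directions. The receptor gene Fzd7 was 8.32-fold higher at day 7 than in controls and Ryk 2.04-fold higher, while Fzd4 was 4.74-fold lower, and Fzd9, Wnt3 and Wnt9b were also lower. By day 10 Wnt4, Fzd1 and Fzd6 were also higher, and Wnt6, Wnt5b, Lrp6 and Ror2 were lower. Several calls were lost under other processing or with an array left out, as given below. At day 7 only that of Fzd7 held throughout, and at day 10 those of Fzd1, Fzd6, Wnt5b and Lrp6 did not. The second Lrp6 probe was not called. Fzd4 was no longer detected there. Wnt7a, Wnt7b and Wnt10a, dim on all 6 other arrays, were bright on the single day 10 array. No gene of the set passed the test at day 4.

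Detection varied among the arrays for 10 of the 19 ligands and 3 of the 10 Frizzled genes. In the controls 18 of the 34 genes were detected on both arrays, 3 on 1 array and 13 on neither. The corresponding numbers were 19, 3 and 12 at day 4 and 15, 2 and 17 at day 7, and the day 10 array detected 17 and missed 17. The share of all probes detected per array was 47.97% and 48.77% in the controls and 49.81% and 49.09% at day 4. It was 45.21% and 47.77% at day 7 and 51.28% at day 10. The lowest detected signal was 11.98 and 12.51 in the controls and 15.82 and 16.44 at day 4. At day 7 it was 19.01 and 13.51, and at day 10 23.61. Over the 7 arrays, 12 genes were detected everywhere, namely Wnt1, Wnt4, Wnt5a, Fzd1, Fzd2, Fzd5, Fzd6, Fzd7, Lrp5, Lrp6, Ror2 and Ryk. A further 9 were detected nowhere, namely Wnt2, Wnt2b, Wnt3a, Wnt8a, Wnt10b, Wnt16, Fzd3, Fzd10 and Ror1. The remaining 13 varied. These counts take 1 probe per gene, the brightest. Among the 12 genes detected everywhere, second probes of Wnt1 and Fzd2 were detected on no array, and that of Fzd7 on the day 7 and day 10 arrays only. Wnt8b was detected on day 4 replicate 2 alone. Detection on every array of a group held for 7 of 19 ligands in the controls, 8 at day 4, 5 at day 7 and 7 at day 10, and for 7, 7, 6 and 6 of the 10 Frizzled genes. The ligand numbers at day 7 and day 10 cover different genes, as Wnt3 and Wnt9a were detected on all control and day 4 arrays and on none later, and Wnt7a, Wnt7b and Wnt10a at day 10 only.

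**Figure D1:**
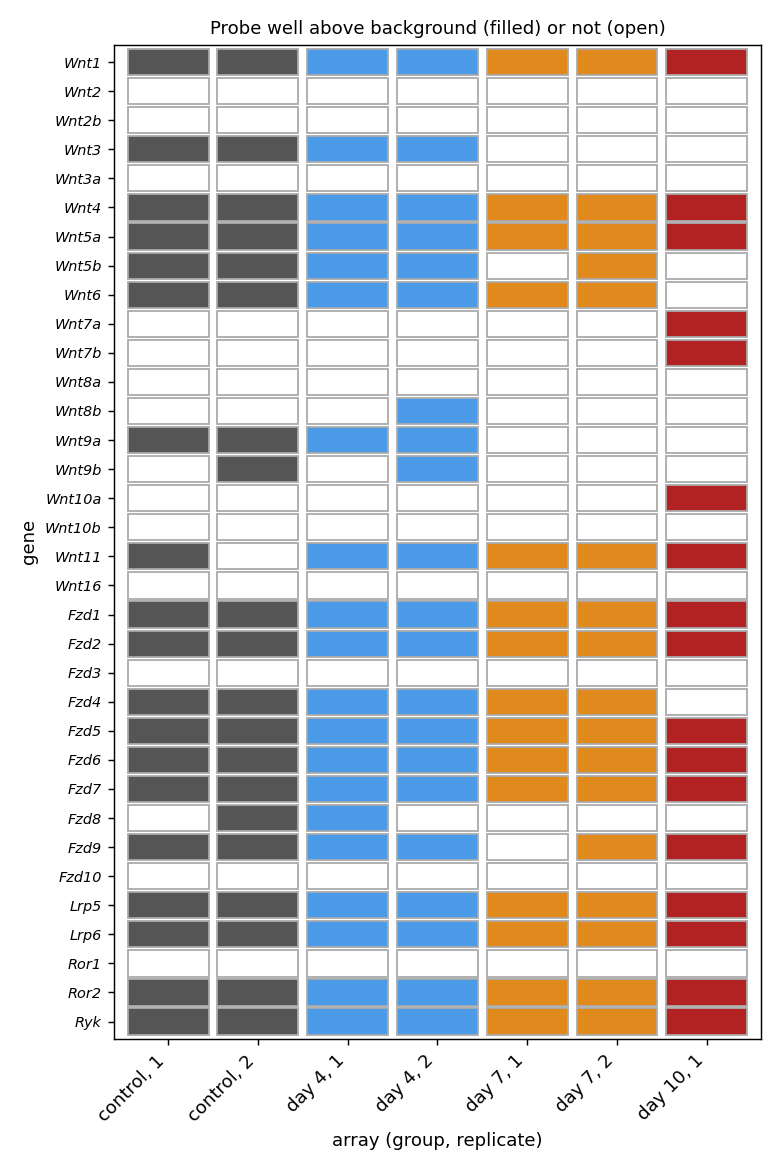
Detection of the 34 genes on the 7 arrays. Rows are genes, columns are arrays by group and replicate, a filled cell marks a probe well above background and an open cell one that was not. Wnt3 and Wnt9a are filled in the 4 control and day 4 columns only, and Wnt7a, Wnt7b and Wnt10a in the day 10 column only.

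Promoter windows from RefSeq on GRCm38.p6, 250 bases before to 50 after the gene start, were matched by symbol for 24 of the 34 genes (27 windows). Those of Fzd7, Fzd4 and Wnt3 are shown because these genes carried the receptor rise, the receptor fall and the ligand fall that began by day 7. Each runs 5′ to 3′ on the plus strand, at chr1:59481897-59482196, chr7:89404116-89404415 and chr11:103773925-103774224 in that order, and capitals mark a CCAAT box (CCAAT or ATTGG) or a GC box (GGGCGG or CCGCCC).
Fzd7: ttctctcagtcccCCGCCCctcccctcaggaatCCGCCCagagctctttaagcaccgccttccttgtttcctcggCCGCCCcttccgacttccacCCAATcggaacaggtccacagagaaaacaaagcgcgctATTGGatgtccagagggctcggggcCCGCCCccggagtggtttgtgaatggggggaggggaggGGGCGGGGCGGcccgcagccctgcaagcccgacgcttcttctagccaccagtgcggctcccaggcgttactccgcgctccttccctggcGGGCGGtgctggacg
Fzd4: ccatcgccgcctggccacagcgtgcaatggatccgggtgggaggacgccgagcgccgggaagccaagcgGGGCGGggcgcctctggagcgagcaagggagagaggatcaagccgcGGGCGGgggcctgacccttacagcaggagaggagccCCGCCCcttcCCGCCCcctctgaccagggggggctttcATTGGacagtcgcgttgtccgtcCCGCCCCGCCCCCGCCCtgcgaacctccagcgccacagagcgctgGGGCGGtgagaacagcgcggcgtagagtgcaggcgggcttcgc
Wnt3: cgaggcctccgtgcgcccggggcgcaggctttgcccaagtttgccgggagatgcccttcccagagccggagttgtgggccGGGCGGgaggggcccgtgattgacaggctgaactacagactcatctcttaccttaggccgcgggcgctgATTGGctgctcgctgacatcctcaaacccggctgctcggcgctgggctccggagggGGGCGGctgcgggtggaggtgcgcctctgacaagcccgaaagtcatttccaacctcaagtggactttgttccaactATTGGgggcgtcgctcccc
The windows hold 2 CCAAT boxes and 7 GC boxes for Fzd7, 1 and 8 for Fzd4, and 2 and 2 for Wnt3. Searched on both strands, a GC box occurred in 22 of the 27 windows of the set (81.5%) and in 35.7% of all 32851 windows of that length, and a CCAAT box in 10 of 27 (37.0%) and in 37.4% of all. The TEAD core GGAATG was found in 1 of 27 windows (3.7%), an upstream window of Wnt5b, against 14.7% of all. The TCF/LEF core CTTTGAA or CTTTGAT was found in 2 of 27 (7.41%), of Wnt5b and Wnt11, against 8.65% of all. No matches of different motifs overlapped. None of the 3 printed windows held either of the last 2 motifs, which says only that these letters are not in the window.

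Among the ligands, Wnt3 fell out of detection. Wnt3 acts through beta-catenin and supports crypt stem cells. Its levels were -2.83 and -2.60 in the controls, -2.82 and -3.28 at day 4, -4.74 and -6.10 at day 7 and -6.14 at day 10. All 3 later arrays lay below all 4 earlier ones and were not well above background. Wnt3 was lower than control at day 7 by -2.71 ± 0.46 (adjusted p = 0.023, at least 2.83-fold). At day 10 it was lower by -3.42 ± 0.57 (adjusted p = 0.0070, at least 3.04-fold). Where a probe was dim in a whole group, "at least" sets the brighter group against the lowest signal that counted as detected on the dim arrays, or the dim probe itself where that was higher. The day 7 call was lost without either control array or either day 4 array (adjusted p = 0.059 to 0.088) and under normexp background correction (-0.78, adjusted p = 0.081), so that it held in 9 of 16 alternatives. The day 10 call held in all 15 that gave a value, with differences of -3.69 to -1.29. The summed Paneth cell marker level was also lowest on these 3 arrays, as given above, and its part in the Wnt3 difference was not tested.

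Wnt9b, a ligand of the beta-catenin route in other epithelia, was faint. Its levels were -3.09 and -3.61 in the controls, -4.75 and -3.66 at day 4, -5.67 and -5.96 at day 7 and -4.90 at day 10. It was detected on 1 control array and 1 day 4 array only, and the day 7 arrays were the lowest. Wnt9b was lower at day 7 than in controls by -2.47 ± 0.40 (adjusted p = 0.020, at least 1.82-fold). This call was lost without control replicate 1 (adjusted p = 0.10) or either day 7 array (0.080 and 0.065), and under normexp (-0.33, adjusted p = 0.44), and it held in 9 of 14 alternatives. Its day 10 difference of -1.56 ± 0.50 missed the threshold (adjusted p = 0.063).

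Wnt6 and Wnt5b were lower on the day 10 array. Wnt6, an epithelial ligand, stood at -0.92 and -1.14 in the controls, -0.95 and -0.39 at day 4, -2.19 and -1.48 at day 7 and -4.93 at day 10. The day 7 arrays lay below the earlier 4, and the day 10 array was lowest and not well above background. The fit put Wnt6 at -0.80 ± 0.33 relative to control at day 7 (adjusted p = 0.22). On the day 10 array it was lower by -3.90 ± 0.40 (adjusted p = 0.0014, at least 9.76-fold), and against day 7 by at least 5.59-fold (adjusted p = 0.0048). Wnt5b, which signals mainly without beta-catenin, stood at 0.14 and -2.30 in the controls, -0.90 and 0.58 at day 4, -3.14 and -2.26 at day 7 and -5.19 at day 10. The control arrays were far apart and overlapped with day 7, and only the day 10 array lay below all others. Its day 10 difference of -4.11 ± 1.07 (adjusted p = 0.034, at least 9.41-fold) was lost without control replicate 1 (-2.89, adjusted p = 0.058) and without any day 4 or day 7 array (0.051 to 0.052), and it held in 6 of 15 alternatives with a range of -5.33 to -2.11. The Wnt6 call at day 10 held in all 15, with a range of -4.09 to -2.25. Wnt9a levels were -3.54 and -3.58 in the controls, -3.74 and -3.30 at day 4, -5.40 and -3.78 at day 7 and -5.07 at day 10. The last 3 were dim and lowest, yet neither the day 7 difference of -1.03 ± 0.52 (adjusted p = 0.30) nor that of -1.51 ± 0.63 on the day 10 array (adjusted p = 0.13) was called.

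Wnt4 was the tested ligand that was higher at day 10. Wnt4 can signal with or without beta-catenin, and its brighter probe read -1.65 and -1.10 in the controls, -1.17 and -1.15 at day 4, -0.26 and 0.87 at day 7 and 1.77 at day 10. The 3 later arrays lay above the 4 earlier ones. Its rise was 3.15 ± 0.50 at day 10 (8.89-fold, adjusted p = 0.0061), and the day 7 difference of 1.68 ± 0.41 missed the threshold (adjusted p = 0.065). The second Wnt4 probe gave 2.52 ± 0.42 for day 10 (adjusted p = 0.0071) but 0.59 ± 0.34 for day 7 (adjusted p = 0.37). Both probes thus showed the day 10 rise, which held in all 16 alternatives.

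Wnt5a, the main ligand of the route without beta-catenin, had its highest values at day 7. It read -2.90 and -3.05 in the controls, -3.94 and -3.27 at day 4, -2.02 and -1.44 at day 7 and -2.90 at day 10. Day 7 lay above every other array, and the day 10 array was level with the controls. The difference was 1.87 ± 0.32 between day 7 and day 4 (adjusted p = 0.044) and 1.25 ± 0.32 between day 7 and control (adjusted p = 0.078). The first of these lost its call when any 1 of the 6 control, day 4 and day 7 arrays was left out (adjusted p = 0.072 to 0.19) and under normexp (0.91, adjusted p = 0.15), and it held in 7 of 17 alternatives.

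Wnt11 read -3.59 and -4.18 in the controls, -3.37 and -3.93 at day 4, -2.53 and -3.47 at day 7 and -2.84 at day 10. Its day 7 and day 10 differences of 0.88 ± 0.41 and 1.04 ± 0.50 were not called (adjusted p = 0.27 and 0.17). Wnt1, a founding member of the family, had 1 probe that read 0.94 and -0.18 in the controls, -0.29 and -0.25 at day 4, -0.12 and -0.16 at day 7 and -0.46 at day 10. Apart from control replicate 1 these lay close together, and no comparison of Wnt1 was called. The second Wnt1 probe was detected on no array, with levels of -6.51 to -5.69, so the 2 probes disagree.

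The day 10 array alone detected 3 ligands. Wnt7b read -4.11 and -6.04 in the controls, -5.06 and -4.99 at day 4, -4.81 and -4.60 at day 7 and 0.73 at day 10. Wnt10a read -6.72 and -6.47, then -5.75 and -5.79, then -6.21 and -6.15, and -0.61 at day 10. Wnt7a read -6.47 and -6.42, then -6.23 and -6.42, then -5.99 and -6.04, and -1.58 at day 10. None of the values before day 10 counted as detected. Against control the day 10 array was at least 34.8-fold higher for Wnt7b, 16.0-fold for Wnt10a and 8.19-fold for Wnt7a, and against day 7 the bounds were 30.7-fold, 12.2-fold and 6.23-fold. With detection on 1 array these genes were below the minimum of 2 arrays and had no test in the main analysis. The group is a single mouse, and the summed levels of the myeloid and mesothelial lists were highest on the same array, whose part was not tested.

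**Figure D2:**
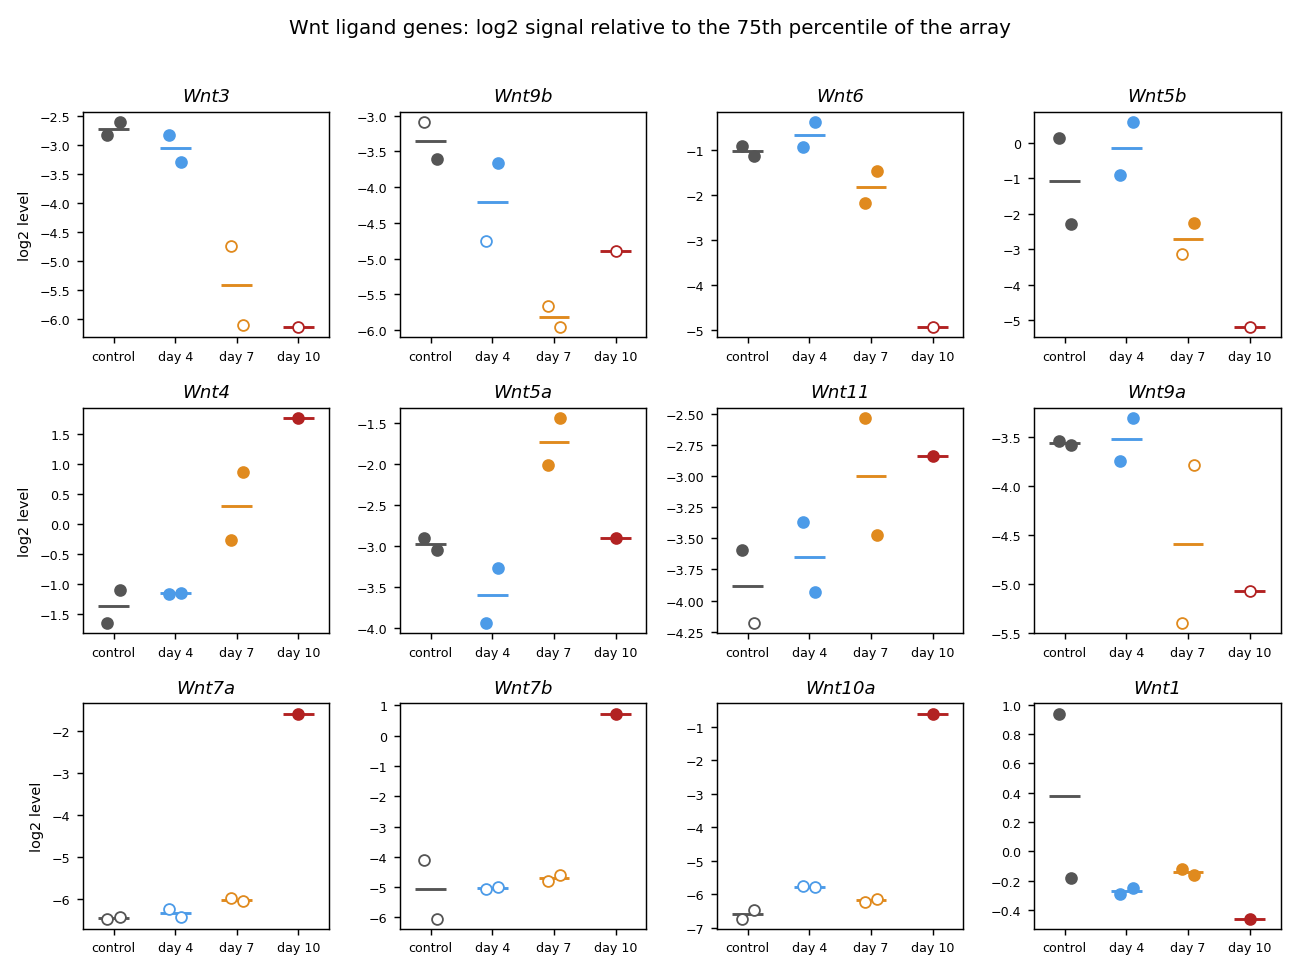
Levels of 12 Wnt ligand genes as log2 signal relative to the 75th percentile of each array, by group. Each point is 1 array, filled where the probe was well above background and open where it was not, and the bar is the group mean. Wnt3 and Wnt6 fall to open points, Wnt4 rises to 1.77, and Wnt7a, Wnt7b and Wnt10a are filled at day 10 alone. Vertical scales differ among panels.

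Among the receptors, Fzd7 was higher in both later groups. It read -1.64 and -1.73 in the controls, -0.39 and -0.82 at day 4, 1.70 and 1.04 at day 7 and 0.94 at day 10. Day 4 lay above the controls and the 3 later arrays above day 4, with no overlap between neighbouring groups up to day 7. Relative to control it was higher by 3.06 ± 0.30 on day 7 (8.32-fold, adjusted p = 0.0051) and by 2.63 ± 0.37 on day 10 (6.19-fold, adjusted p = 0.0039). On day 4 the value was 1.08 ± 0.30 (2.12-fold), which was not called (adjusted p = 0.53). A fainter second probe was detected on the 3 later arrays only, at -3.23, -3.40 and -3.56, which put it at least 2.45-fold above control on day 7 and at least 2.06-fold on day 10. Both differences of the main probe held in every alternative run, 17 at day 7 and 16 at day 10. Day 7 also exceeded day 4 by 1.97 ± 0.30 (adjusted p = 0.034), a call that was lost without either control array, either day 4 array or day 7 replicate 1 (adjusted p = 0.058 to 0.23) and held in 10 of 17 alternatives.

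Fzd1 and Fzd6 were higher on the day 10 array. Fzd1 read -1.93 and -1.43 in the controls, -1.59 and -1.42 at day 4, -3.53 and -2.66 at day 7 and 0.47 at day 10. It thus lay lowest at day 7 and highest at day 10. The day 7 difference from control was -1.41 ± 0.35 (adjusted p = 0.069), the day 10 difference 2.15 ± 0.43 (4.43-fold, adjusted p = 0.014), and day 10 exceeded day 7 by 3.56 ± 0.43 (adjusted p = 0.0037). Without control replicate 1 the day 10 difference from control was 1.90 (adjusted p = 0.051). Fzd6, a receptor of planar polarity signalling, read -2.71 and -2.83 in the controls, -2.46 and -2.32 at day 4, -1.43 and -2.76 at day 7 and -0.55 at day 10. The day 7 arrays were split, and the day 10 array was highest. Its rise of 2.21 ± 0.53 at day 10 (4.64-fold, adjusted p = 0.025) was lost without either control array (0.065 and 0.069) or either day 4 array (0.057), and held in 12 of 16 alternatives.

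Fzd4, which also serves as receptor for Norrin, fell from day 7 on. It read 1.24 and 1.34 in the controls, 0.36 and 1.22 at day 4, -1.21 and -0.70 at day 7 and -5.00 at day 10. The day 7 arrays lay below all earlier ones, and on the day 10 array the probe was not well above background. Fzd4 was lower than control by -2.25 ± 0.35 on day 7 (4.74-fold, adjusted p = 0.018). The day 10 array was lower than control by -6.30 ± 0.43 (adjusted p = 0.00038, at least 48.8-fold), and day 10 was lower than day 7 by -4.05 ± 0.43 (adjusted p = 0.0024, at least 10.3-fold). The day 7 call was lost without either control array (0.078 and 0.064) or day 7 replicate 1 (0.084). The day 10 differences held in all 15 alternatives, with a range of -6.49 to -3.89 against control.

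Fzd9 was lower at day 7. It read -0.61 and -1.71 in the controls, -1.50 and -1.81 at day 4, -4.29 and -3.27 at day 7 and -3.06 at day 10. The 3 later arrays lay below the earlier 4, and 1 day 7 array was dim. Fzd9 was lower than control by -2.61 ± 0.48 on day 7 (6.12-fold, adjusted p = 0.029), and the value of -1.89 ± 0.59 on day 10 missed the threshold (adjusted p = 0.058). The day 7 call was lost without control replicate 1 (0.11), day 7 replicate 1 (0.12) or either day 4 array (0.073), and under normexp (-1.27, 0.052), and held in 9 of 16 alternatives. At day 10 the gene was called under 6 of 15 alternatives.

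The other Frizzled genes were not called in any comparison. Fzd2 read -1.41 and -2.11 in the controls, -1.35 and -2.33 at day 4, -2.33 and -2.17 at day 7 and -3.31 at day 10, and its day 10 difference of -1.55 ± 0.49 was not called (adjusted p = 0.061). The second Fzd2 probe was detected on no array. Fzd5, a crypt receptor required for Paneth cell maturation, read 0.80 and 0.51 in the controls, 0.75 and 0.91 at day 4, 0.62 and 0.58 at day 7 and 0.08 at day 10. Its 95% interval for the day 7 difference from control ran from -0.59 to 0.48 and that at day 10 from -1.23 to 0.08. The second Fzd5 probe differed by 0.06 ± 0.23 at day 7 and by 0.28 ± 0.28 at day 10. Fzd8 was near background, with levels of -5.24 to -3.61 and detection on 1 control and 1 day 4 array. Fzd3 and Fzd10 were detected nowhere, so no statement on their change is possible.

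The coreceptors were detected on all arrays. Lrp5 read 1.98 and 1.75 in the controls, 1.51 and 1.50 at day 4, 2.11 and 1.75 at day 7 and 1.49 at day 10, and its 95% interval for the day 7 difference ran from -0.50 to 0.62. Lrp6 read 3.56 and 3.22 in the controls, 2.29 and 3.02 at day 4, 2.99 and 2.84 at day 7 and 1.91 at day 10. The controls were highest and day 10 lowest. The Lrp6 difference of -1.47 ± 0.37 at day 10 (2.78-fold, adjusted p = 0.031) was not matched by the second probe, which gave -0.59 ± 0.33 (adjusted p = 0.23). It was also lost without either control array (0.11 and 0.054) and when both probes were averaged (-1.03, 0.074), and held in 9 of 16 alternatives.

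Of the alternative receptors, Ryk rose and Ror2 fell. Ryk, an atypical kinase-like receptor, read 1.79 and 1.84 in the controls, 2.22 and 2.29 at day 4, 2.94 and 2.74 at day 7 and 3.42 at day 10. Its 4 groups did not overlap and were ordered by day. Relative to control it was 0.44 ± 0.21 on day 4 (adjusted p = 0.87). It was higher by 1.03 ± 0.21 on day 7 (2.04-fold, adjusted p = 0.039) and by 1.61 ± 0.25 on day 10 (3.04-fold, adjusted p = 0.0060). The day 7 call was lost when any 1 of the 6 control, day 4 and day 7 arrays was left out (0.051 to 0.19) and held in 7 of 17 alternatives, while the day 10 call held in all 16 alternatives. Ror2, a receptor for Wnt5a, read -1.91 and -1.26 in the controls, -0.97 and -1.20 at day 4, -2.57 and -2.22 at day 7 and -3.91 at day 10. The later arrays lay below the earlier ones. The day 7 difference of -0.81 ± 0.30 was not called (adjusted p = 0.18). The day 10 difference was -2.32 ± 0.36 (adjusted p = 0.0057), and the call held in all 16 alternatives with a range of -2.65 to -1.12. Day 10 was also lower than day 7 by -1.51 ± 0.36 (adjusted p = 0.036), which was lost without any 1 of the day 4 or day 7 arrays (0.055 to 0.095) and under normexp (-0.87, 0.14), and held in 7 of 16 alternatives.

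**Figure D3:**
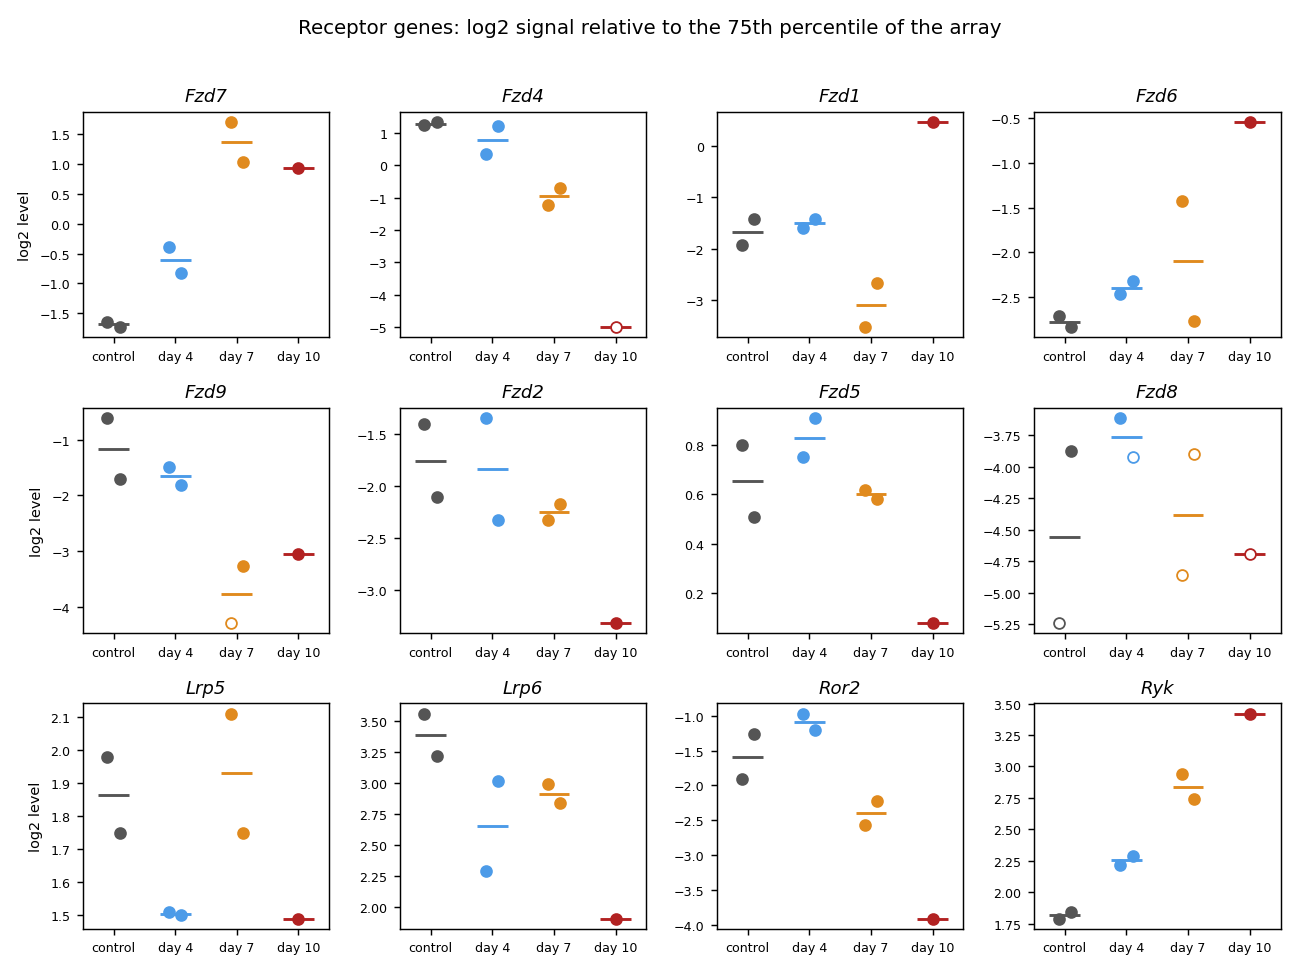
Levels of 12 receptor and coreceptor genes as log2 signal relative to the 75th percentile of each array, by group. Each point is 1 array, filled where the probe was well above background and open where it was not, and the bar is the group mean. Fzd7 rises by day 7, Ryk is ordered by day, and Fzd4 ends at an open point of -5.00. Vertical scales differ among panels.

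More genes of the set were called at later days, as over the whole array. The 21 tested genes passed the filter through groups where they were bright, so these counts describe the tested genes and not the 34. At day 4 against control 0 of 21 were called by limma, and 0.0323% of all features were called. An unadjusted p under 0.05 held for 1 of 21 and for 6.19% of all features. At day 7, 2 were called higher (Fzd7, Ryk) and 4 lower (Wnt3, Wnt9b, Fzd4, Fzd9), where 3.05% of all features were called higher and 4.31% lower. Together these were 28.6% of the tested genes against 7.36% of all features, and 10 of 21 had an unadjusted p under 0.05 against 22.7% of all features. At day 10, 5 were called higher (Wnt4, Fzd1, Fzd6, Fzd7, Ryk) and 6 lower (Wnt3, Wnt5b, Wnt6, Fzd4, Lrp6, Ror2), where 10.7% of all features were called higher and 17.5% lower. Together these were 52.4% of the tested genes against 28.2% of all features, and 14 of 21 had an unadjusted p under 0.05 against 40.5%. Both comparisons use the same 2 control arrays. The median difference of the tested genes was 0.17 at day 4, -0.49 at day 7 and -0.83 at day 10, against -0.06, -0.06 and -0.13 over all features. The day 7 counts rest on few arrays. Without control replicate 1 they were 1 higher and 0 lower, without control replicate 2 they were 1 and 1, without the 2 day 4 arrays in turn 1 and 2 or 1 and 1, and without day 7 replicate 1 they were 2 and 1. The gene that stayed higher in each of these fits was Fzd7. Without control replicate 1 the day 10 count of higher genes was 3.

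Between successive days, 2 of the 21 genes were called higher at day 7 than at day 4 (Wnt5a, Fzd7) and 0 lower, where 1.28% of all features were called higher and 1.52% lower (2.8% in all). An unadjusted p under 0.05 held for 12 of 21 genes and for 17.5% of all features. Both calls were lost in most fits that left out 1 array, as given above, and the count was 0 without any 1 control or day 4 array or day 7 replicate 1. The count of lower genes was 1 without day 7 replicate 1 and 2 without day 7 replicate 2. From day 7 to day 10, 1 gene was called higher (Fzd1) and 3 lower (Wnt6, Fzd4, Ror2), where 7.24% of all features were called higher and 11% lower. The 4 genes are 19% of those tested, close to the 18.2% of all features called, and 8 of 21 had an unadjusted p under 0.05 against 32.4%. The count of higher genes was 2 without day 7 replicate 1, when Fzd6 was also called, and 2 without day 7 replicate 2, when Wnt4 was also called. In every fit the spread of the lone day 10 array was assumed to equal that of the other groups.

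**Figure D4:**
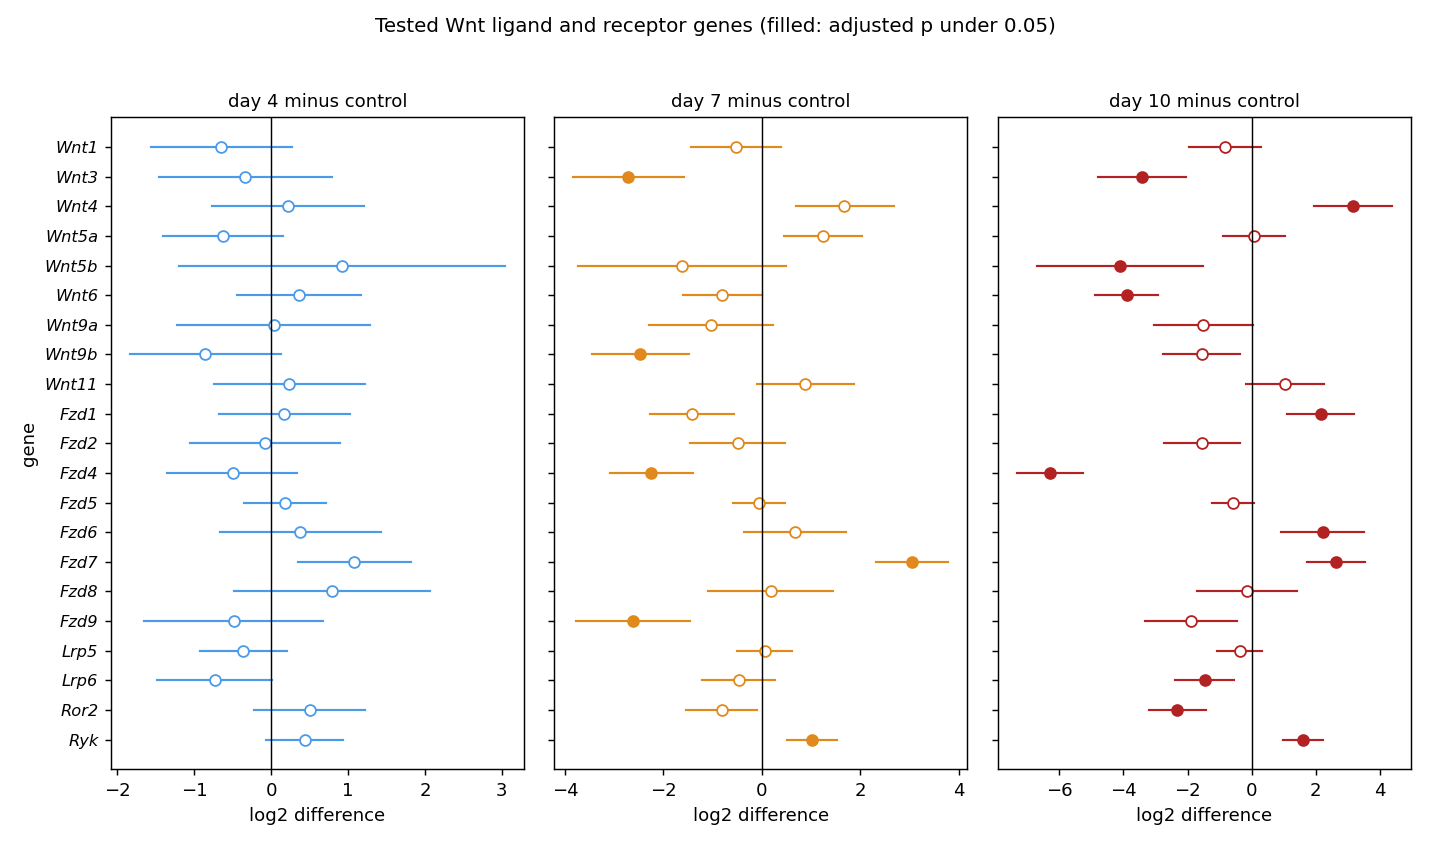
Log2 differences from control of the 21 tested genes at day 4, day 7 and day 10. Points are limma estimates, bars are 95% intervals, and filled points have an adjusted p under 0.05. No point is filled at day 4, 6 are filled at day 7 and 11 at day 10. Horizontal scales differ among panels.

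Genes around the ligands and receptors were counted by pathway list, against control. Of all features, 3.05% were called higher and 4.31% lower at day 7, and 10.7% and 17.5% at day 10. None of the listed genes was called at day 4, where 0.0323% of all features were. In the machinery that lipidates and exports Wnt proteins (5 of 5 tested), Wls, the carrier that brings Wnts to the surface, was higher by 1.44 ± 0.30 on day 7 (adjusted p = 0.043) and by 2.61 ± 0.37 on day 10 (0.0040). Porcn, the acyltransferase that adds the lipid, was lower by -1.10 ± 0.20 at day 7 (0.028) and higher by 3.24 ± 0.24 at day 10 (0.00051). Tmed5 was higher at day 10. Of the antagonists 9 of 22 were tested, 0 higher and 3 lower at day 7 and 2 higher and 4 lower at day 10. The secreted Sfrp5 was lower by -4.97 ± 0.42 at day 7 (0.0035), Dkk4 by -2.54 ± 0.33 (0.011) and Wif1 by -1.63 ± 0.29 (0.028). Wif1 was dim on the later arrays and too faint in the controls for a bound, and at day 10 Sfrp5 and Dkk4 were dim and at least 63.1-fold and 6.40-fold lower. At day 10 Notum joined them by -2.76 ± 0.44 (0.0060) while Kremen1 and Kremen2, which bind Dkk proteins, were higher.

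The receptor turnover and target genes called at day 7 were lower. Of the R-spondin, Lgr and E3 ligase genes 4 of 9 were tested. The stem cell receptor Lgr5 was lower by -1.53 ± 0.29 at day 7 (0.031) and -6.18 ± 0.35 at day 10 (0.00026, where it was dim and at least 17.3-fold lower), and Rnf43, which removes Frizzled proteins from the surface, by -1.57 ± 0.32 at day 7 (0.040) but not called at day 10 (-0.89 ± 0.39, 0.14). Of 20 target genes 19 were tested, with 0 higher and 5 lower at day 7 (Ascl2, Sp5, Cdx1, Lgr5, Rnf43) and 3 higher and 8 lower at day 10. The 3 higher ones were Myc (3.71 ± 0.52, 0.0040), Sox4 (3.41 ± 0.29, 0.00072) and Ccnd1 (2.51 ± 0.69, 0.041). Among 10 tested genes of 14 other Wnt and planar polarity receptors, Vangl1 was higher at day 7 (3.45 ± 0.44, 0.011), and Vangl1, Celsr1 and Sdc4 at day 10. Of 21 tested beta-catenin transducers, the corepressor Tle4 was higher at day 7 (1.38 ± 0.23, 0.022) and day 10, and Tle1 was lower at day 10. Of 18 tested effectors of the route without beta-catenin, Plcb1 was lower at day 7 (-3.11 ± 0.29, 0.0045, dim there and at least 2.22-fold lower), and 4 were lower at day 10. In both directions together, these effectors and the transducers had a smaller share called than all features (7.36% at day 7 and 28.2% at day 10). The share of the other receptors was close to that of all features.

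**Figure D5:**
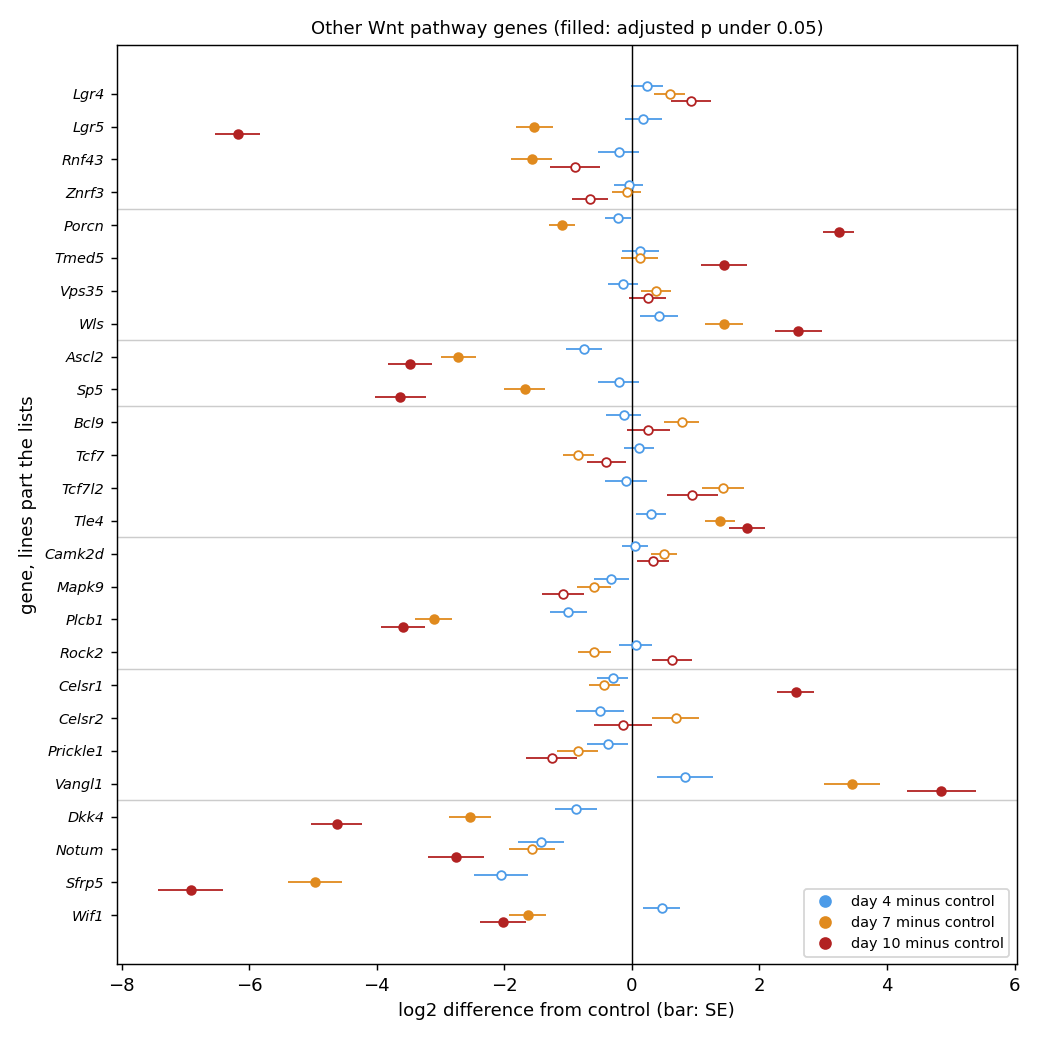
Log2 differences from control of the 4 genes per pathway list with the smallest p at day 7, with the lists parted by lines. Points are limma estimates at day 4, day 7 and day 10, bars are 1 SE, and filled points have an adjusted p under 0.05. Sfrp5 and Lgr5 reach -6.92 and -6.18 at day 10, where both were dim, and Vangl1 and Porcn reach 4.85 and 3.24. Lgr5 and Rnf43 are drawn once though 2 lists hold them.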

How the data were processed

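The scanner files hold intensity per spot, and the deposited values used here were the background-subtracted processed signal of Agilent Feature Extraction 11.5.1.1, per the file headers (array design 028005, build label mm9, 1 slide scanned on 1 day). The table of values deposited with the series equalled that signal within 0.1% for 100% of the single-spot probes. In R 4.3.3 (jsonlite 2.0.0 and data.table, version 1.17.8), outlier and control spots were left out, spots of a probe averaged, and log2 signals centred on the 75th percentile of the array. No column of gene names was used: accessions were matched to RefSeq (GRCm38.p6), which named 27509 of 55681 probes and left 28172 without a symbol; 91 probes were left out as missing on an array. The probe with the highest mean represented a gene. Probes that the scanner software marked as detected on 2 or more of the 7 arrays were fitted with limma 3.58.1 (lmFit and eBayes, 4 groups, 3 residual and 3.15 prior degrees of freedom), 2-sided, Benjamini-Hochberg adjusted over 24763 features, called at 0.05. No probe was saturated, 45.21 to 51.28% of probes were well above background, and the number of arrays limits the precision. Replicates were different mice, per the design text. Values were named for every gene detected on all arrays of 1 group or called, for other tested genes with an unadjusted p under 0.05 or a known crypt role, and for the 4 genes per pathway list with the smallest p at day 7; further genes of the lists named beside a count, and Wnt1, Wnt11, Wnt9a and Fzd8 test values, were chosen after their values were seen. The members and lists were chosen with earlier results of these data known. Replicate numbers were not used as pairs in the main fit, as the labels give no pairing. Deviations of same-numbered arrays correlated at 0.0083 (control and day 4), 0.086 (control and day 7) and 0.25 (day 4 and day 7). These values cannot show whether samples were paired. Other scalings, normexp (on the median spot and background signals with an offset of 50, as no mean signal column was used here), filters, designs and leaving out each array were tried as alternatives, and the fit was tested on simulated data.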

Additional observations from a re-analysis of the deposited data

Results flagged for a closer look

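A few genes differed between knockout time points by a test of the difference itself in the limma fit, that is, in their effects against the shared controls. The calls of Wnt5a, Fzd7 and Ror2 among them were lost in several alternatives, as given above. From day 4 to day 7 the effect rose by 1.87 (log2) for Wnt5a and by 1.97 for Fzd7, and both later arrays lay above both earlier ones. From day 7 to day 10 the effect changed by 3.56 for Fzd1, whose effect against control went from -1.41 to 2.15, and by -3.09 for Wnt6, -4.05 for Fzd4 and -1.51 for Ror2, which were already below control on average at day 7. Wnt6 and Fzd4 were not well above background on the day 10 array, so these are fitted values, and the falls from day 7 were at least 5.59-fold and at least 10.3-fold. The day 10 side of these last 4 values is 1 mouse.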

How the results depend on the processing

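Of the differences that were recomputed, those called or with an unadjusted p under 0.05, none changed sign. Differences nearer 0 were not recomputed. At day 4, 0 genes were called in every alternative. Counts moved as follows. Without a filter on dim probes, day 7 had 1 gene higher and 1 lower, day 10 had 8 higher, day 7 against day 4 had 0 higher, and day 10 against day 7 had 4 higher. With only probes detected on all arrays, day 7 had 4 higher and 1 lower, day 10 had 3 lower (9 under median scaling and under quantile normalization), day 7 against day 4 had 2 lower, and day 10 against day 7 had 1 lower. This filter drops dim genes by construction. With the 2 compared groups alone, day 7 had 1 higher and 2 lower and day 7 against day 4 had 0 higher. Normexp, which started from the unprocessed median signal and added an offset of 50 and so changed more than the background step, gave 1 lower at day 7 and 1 higher from day 4 to day 7, the percentile over detected probes 1 higher from day 4 to day 7, and median scaling 2 lower there. With a replicate block, which does not rest on a pairing in the labels, day 7 against day 4 had 2 lower and day 10 against day 7 had 2 higher. Leaving out 1 array gave 1 to 2 higher and 0 to 5 lower at day 7, 3 to 5 higher and 4 to 7 lower at day 10, 0 to 2 higher and 0 to 2 lower from day 4 to day 7, and 1 to 2 higher and 2 to 3 lower from day 7 to day 10. Where no construction is named, the cause was not tested. Median scaling shifted the median of all features at day 10 to -0.32. Over all features, day 10 against control split into 2656 higher and 4335 lower, and into 3338 and 3452 with the percentile over detected probes; day 10 against day 7 into 1793 and 2719, and 2185 and 2106; day 7 against day 4 into 318 and 376, and 296 and 546 under median scaling. The day 7 counts over all features were 756 and 1067, 461 and 592 with only the 2 groups, and 461 and 509 without a filter. Dim probes, with 1 to 2 arrays a group, bound what can be said of genes near background.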
